A study of Mus musculus with 4 samples.

Results

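The genes described here encode calcium/calmodulin-dependent protein kinases (CaM kinases) and one of the calmodulins that switch them on. They were taken by symbol from the deposited table because Camk2g, one of them, is the gene deleted in the study. All 9 listed symbols (Camk2g, Camk2a, Camk2d, Camk4, Camk1, Camk1d, Camkk1, Camkk2 and Calm2) were among the 10598 genes of the table. All 9 also passed the filter of a mean of at least 10 normalised counts, which left 10587 genes.

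RNA had been sequenced from thymus of C57BL/6J mice, with 1 library for each of 4 groups. Wild-type mice and mice labelled CAMKIIgamma-/- had received vehicle or MNU. MNU, or N-methyl-N-nitrosourea, is an alkylating mutagen that induces thymic T-cell lymphoma in mice, and 1 dose of 75 mg/kg was injected into the peritoneum of mice aged 4 to 5 weeks. Each group carries a treatment time of 6 months in the labels. The study addressed how deletion of the kinase gene limits lymphoma after MNU. The labels do not say which exons were deleted, whether the deletion was restricted to a tissue, or how many animals went into a library. With 1 library a group there is no replicate spread, so no difference below has a test and each value describes its library.

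The normalised counts summed to between 32911400 and 34836300 per library. Of 10 double-positive thymocyte markers and 8 T-lineage markers, all were measured and none was listed at 0 in any library. The 10 thymic epithelial markers summed to 81512 in vehicle wild type, 923 in MNU wild type, 84880 in vehicle knockout and 65583 in MNU knockout. Foxn1, the transcription factor that defines this epithelium, was listed at 0 in MNU wild type, while the epithelial adhesion gene Epcam stood at 784 there and at 1389 in vehicle wild type. In whole tissue, fewer cells of a type and less RNA per cell cannot be told apart. Values below that follow each other without a label are normalised counts in the same order of libraries.

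Calcium that enters a thymocyte after T-cell receptor engagement binds calmodulin, and calcium-loaded calmodulin opens the autoinhibited CaM kinases. CaMKII is a ring-shaped enzyme built from alpha, beta, gamma or delta subunits, which phosphorylate each other and so stay active after the calcium signal has passed. CaMKI and CaMKIV are single-chain kinases that need a further phosphate from an upstream CaM kinase kinase. CaMKIV is abundant in thymocytes and neurons, where it phosphorylates the transcription factor CREB.

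The coding sequence is shown first for the segment around the threonine that CaMKII subunits phosphorylate in each other, because reads of Camk2g can be told from those of its paralogs only where the letters differ. The stretches are coding bases 844 to 903 of the longest GENCODE M21 transcript of each gene (build GRCm38), 5′ to 3′, and capitals mark bases that differ between the genes.
Camk2g: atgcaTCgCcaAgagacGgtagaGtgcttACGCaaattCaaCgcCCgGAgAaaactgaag
Camk2d: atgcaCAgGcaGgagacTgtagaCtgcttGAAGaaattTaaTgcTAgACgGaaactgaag
The pair differed at 17 of these 60 bases. Over whole transcripts, no run of 50 bases of Camk2g occurred in Camk2a, Camk2b or Camk2d. Of its 3887 distinct runs of 25 bases, 13 (0.334%) were shared.

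Camk2g, the gamma subunit gene, was present in both wild-type libraries and low in both knockout libraries. It stood at 2749 and 3173 normalised counts in vehicle and MNU wild type, and at 489 and 29.7 in vehicle and MNU knockout. The knockout level was 17.8% of wild type with vehicle and 0.935% of wild type with MNU, or log2 differences of -2.47 and -6.33 on the log2(value + 10) scale. Of the 10587 genes, Camk2g alone had a lower wild-type library at least 4 times its higher knockout library, at a ratio of 5.63.

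The knockout libraries differed from each other. Camk2g was 16.5-fold higher in vehicle knockout than in MNU knockout. Another measure of the vehicle knockout library bears on this value. The 42 genes that were above 1000 normalised counts in MNU wild type, and over 20-fold higher there than in vehicle wild type and MNU knockout, stood in vehicle knockout at a median of 15.4% (lowest 13.2%, highest 21.4%) of their MNU wild-type level. These shares were taken above the mean of those other libraries. The share for Camk2g, taken above MNU knockout, was 14.6%. With the median share of the MNU wild-type profile subtracted, the log2 difference between knockout and wild type with vehicle was -7.95. The subtracted value was smaller than the 10 added before log2, so this size lies near the floor of the scale. What gives the vehicle knockout library this share was not tested.

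**Figure D1:**
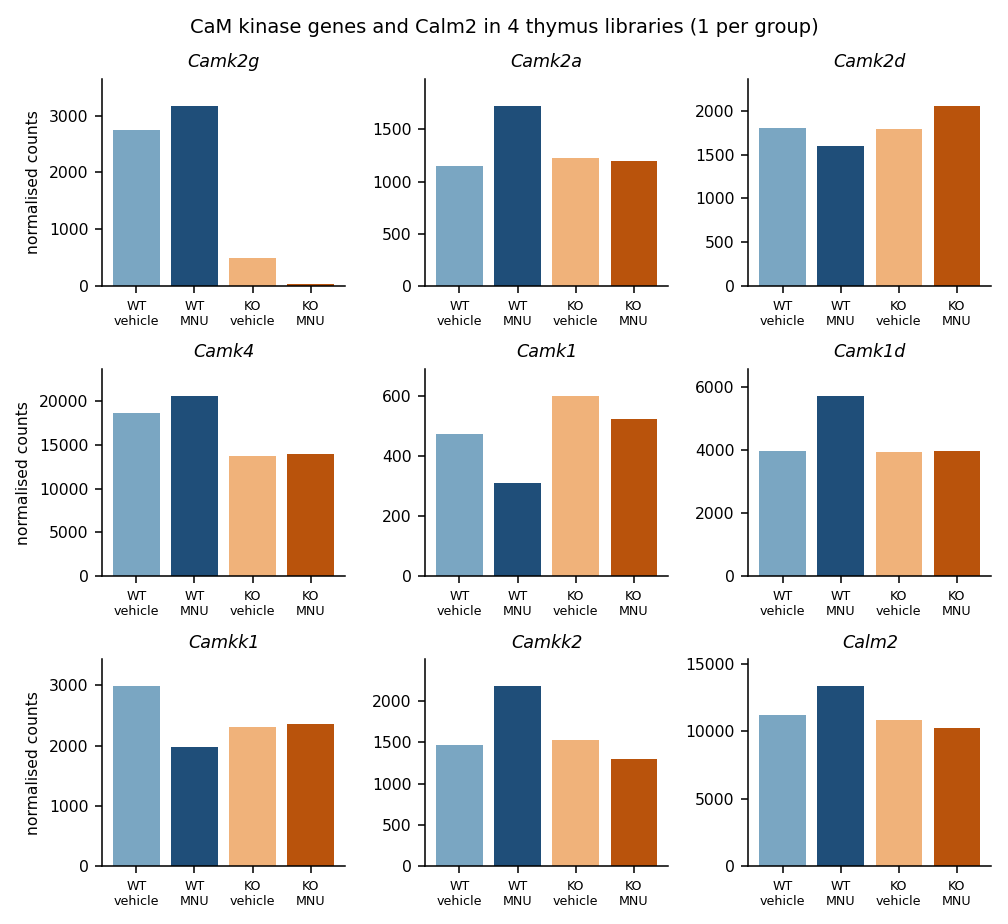
Normalised counts (vertical axes, each from 0 and on its own scale) of the 9 genes in the 4 libraries, 1 bar per library (WT, wild type; KO, knockout). Camk2g stands at 2749 and 3173 in wild type and at 489 and 29.7 in knockout, while no other gene has a bar 2-fold above its lowest one.

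The remaining CaMKII subunit genes did not stand 2-fold apart in any comparison. Camk2a, the alpha subunit best known from neurons, stood at 1153, 1726, 1231 and 1202. With MNU its log2 difference from vehicle was 0.58 in wild type and -0.03 in knockout. Camk2d, the delta subunit best known from heart, stood at 1800, 1594, 1787 and 2055. MNU wild type was thus the highest library for Camk2a and the lowest for Camk2d.

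The CaMKII transcript pool was smaller in knockout and made up mainly of the other subunits. Camk2b, the beta subunit gene, was not analysed here. Levels were divided by the exon length of each gene in GENCODE M21, a later annotation than the mm9 build of the study. Camk2g made up 63.4% of the summed Camk2g, Camk2d and Camk2a level per kb in vehicle wild type and 62.8% in MNU wild type. In vehicle and MNU knockout it made up 23.1% and 1.68%, or 13.9% and 0.902% when levels were not divided by length. The summed level per kb was 1135 and 1323 in wild type and 555 and 461 in knockout. The vehicle knockout pool and its shares include the 489 normalised counts of Camk2g, in the library with a 15.4% median share of the MNU wild-type profile. They were not recalculated with that share subtracted. In MNU knockout Camk2d supplied 52.3% of the pool and Camk2a 46.0%, or 62.5% and 36.6% when levels were not divided by length. In vehicle knockout their order depended on the length used. Camk2d and Camk2a supplied 37.8% and 39.2% by exon length, and 51.0% and 35.1% without length. Against vehicle wild type, the knockout levels of Camk2a were 1.07 and 1.04 times, and those of Camk2d 0.993 and 1.14 times, with vehicle and MNU.

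**Figure D2:**
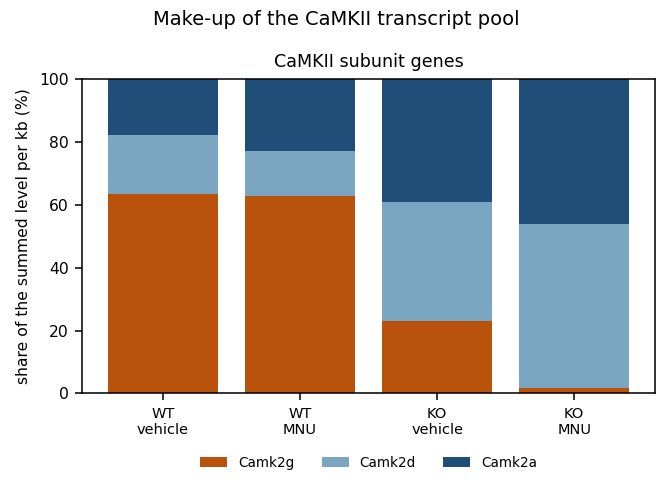
Share (vertical axis, percent) of each gene in the summed level per kb of exon of the CaMKII subunit genes, 1 bar per library. The Camk2g share goes from 63.4% and 62.8% in wild type to 23.1% and 1.68% in knockout. The 23.1% is of vehicle knockout as deposited, with no share of the MNU wild-type profile subtracted.

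Camk4, the CaMKIV gene of thymocytes, was lower in both knockout libraries than in both wild-type libraries. It stood at 18663 and 20573 in vehicle and MNU wild type, and at 13781 and 13921 in vehicle and MNU knockout, so that the genotypes did not overlap and MNU went with little difference within either. The knockout level was 73.8% of wild type with vehicle (log2 difference -0.44) and 67.7% with MNU (-0.56). Against vehicle wild type, MNU knockout stood at 74.6% (-0.42), and with the MNU wild-type share subtracted from vehicle knockout the difference with vehicle was -0.57. With vehicle and no subtraction, 3.17% of all genes were as far below wild type or further. With MNU the share was 18.1%. The lower wild-type library was 1.34 times the higher knockout library, and 29 of 10587 genes, or 0.274%, had a ratio this large.

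The order of the libraries by Camk4 differed from their order by the summed thymocyte markers. The summed double-positive thymocyte markers stood at 379895, 149318, 262718 and 330994, lowest in MNU wild type, where Camk4 was highest. The summed T-lineage markers stood at 138103, 109919, 118257 and 136097. With MNU in wild type, 0 of 10 double-positive markers were at least 2-fold higher and 7 lower. Of the 8 T-lineage markers 1 was higher (Zap70, at 5992, 13525, 6866 and 6740) and 0 lower. Rag1, in the double-positive sum, stood at 123683, 32664, 73746 and 99894. With vehicle, the knockout sums were 0.692 times (double-positive) and 0.856 times (T lineage) wild type, beside 0.738 times for Camk4. Their part in the Camk4 difference was not tested.

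The CaMKI genes went opposite ways with MNU in wild type. Camk1, the alpha isoform of CaMKI, stood at 476, 310, 601 and 526. It was lowest in MNU wild type, at 0.652 times vehicle, and both knockout libraries were above both wild-type libraries. Camk1d, the delta isoform, stood at 3964, 5704, 3928 and 3973, highest in MNU wild type at 1.44 times vehicle. Its other libraries were close to each other. With MNU in wild type, 22.2% of all genes were as far below vehicle as Camk1 or further, and 19.5% as far above as Camk1d. Beside Camk1, the 7 measured of 9 macrophage and dendritic markers summed to 95045, 26903, 119720 and 140003 with none at 0. The low sum of MNU wild type came mainly from the antigen presentation genes Cd74 (53719, 1418, 64788 and 73845) and H2-Ab1 (24103, 1837, 27979 and 30863). With MNU in wild type 3 of the 7 markers were at least 2-fold lower and 1 higher, with a median log2 difference of -0.13, and the macrophage marker Cd68 stood at 1127, 3127, 1715 and 2028. Their part in the Camk1 values was not tested.

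The upstream kinases also differed in direction with MNU in wild type. Camkk1, an activator of CaMKI and CaMKIV, stood at 2985, 1973, 2309 and 2365, lowest in MNU wild type at 0.661 times vehicle. Camkk2, which also phosphorylates the energy sensor AMPK, stood at 1469, 2173, 1522 and 1295, highest in MNU wild type at 1.48 times vehicle. With MNU in wild type, 22.4% of all genes were as far below vehicle as Camkk1 or further, and 17.9% as far above as Camkk2. Both knockout libraries of Camkk1 lay between the wild-type libraries, at 0.774 and 0.792 times vehicle wild type. With vehicle, 4.53% of all genes were as far below wild type as Camkk1 or further. For Camkk2 the MNU change in knockout minus that in wild type was -0.79 on the log2 scale, the lowest among the 8 members other than Camk2g, and 13.6% of all genes were this low or lower.

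Calmodulin is encoded by several genes whose messages differ while the protein is one. The first 60 coding bases of Calm2 are shown beside those of Calm3 because these genes differed in direction with MNU in wild type, and capitals mark the 8 bases that differ.
Calm2: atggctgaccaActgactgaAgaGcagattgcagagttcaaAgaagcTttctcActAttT
Calm3: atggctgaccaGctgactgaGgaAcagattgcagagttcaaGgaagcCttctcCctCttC
Over the 447 coding bases the identity was 82.6%, and both translations were the same. No run of 25 bases was shared between their transcripts.

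Calm2 stood at 11186, 13331, 10869 and 10267, highest in MNU wild type at 1.19 times vehicle. Calm3 stood at 9049, 6302, 8242 and 8907, lowest in MNU wild type at 0.696 times vehicle. In knockout, MNU was at 0.945 times vehicle for Calm2 and at 1.08 times for Calm3. Neither gene was past 2-fold in any comparison.

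Camk2g was the only member past 2-fold in any comparison. With MNU in wild type, 0 of 9 members were at least 2-fold higher and 0 lower, beside 7.14% and 14.2% of all genes. With MNU in knockout 0 were higher and 1 lower (Camk2g), beside 0.331% and 2.95%. In knockout against wild type with vehicle 0 were higher and 1 lower (Camk2g), beside 2.59% and 0.359%, and with MNU likewise 0 and 1 (Camk2g), beside 15.0% and 7.37%. Camk2g was also the 1 member of 9 past 2-fold, and 0 were higher, between MNU knockout and vehicle wild type, where 1.57% of all genes were higher and 1.11% lower. The MNU changes of the genotypes differed at least 2-fold for 1 of 9 members (Camk2g) and for 25.3% of all genes.

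Without Camk2g, the median log2 difference of the 8 members was 0.20 with MNU in wild type and -0.01 with MNU in knockout, beside -0.01 and 0.01 over all genes. In knockout against wild type it was -0.01 with vehicle and -0.45 with MNU, beside 0.00 and 0.01. These comparisons share libraries: MNU wild type enters both of those with the larger medians. Both knockout libraries lay below both wild-type libraries for 3 of 9 members (Camk2g, Camk4 and Calm2) and for 14.7% of all genes. They lay above for 1 of 9 (Camk1) and for 15.3% of all genes.

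**Figure D3:**
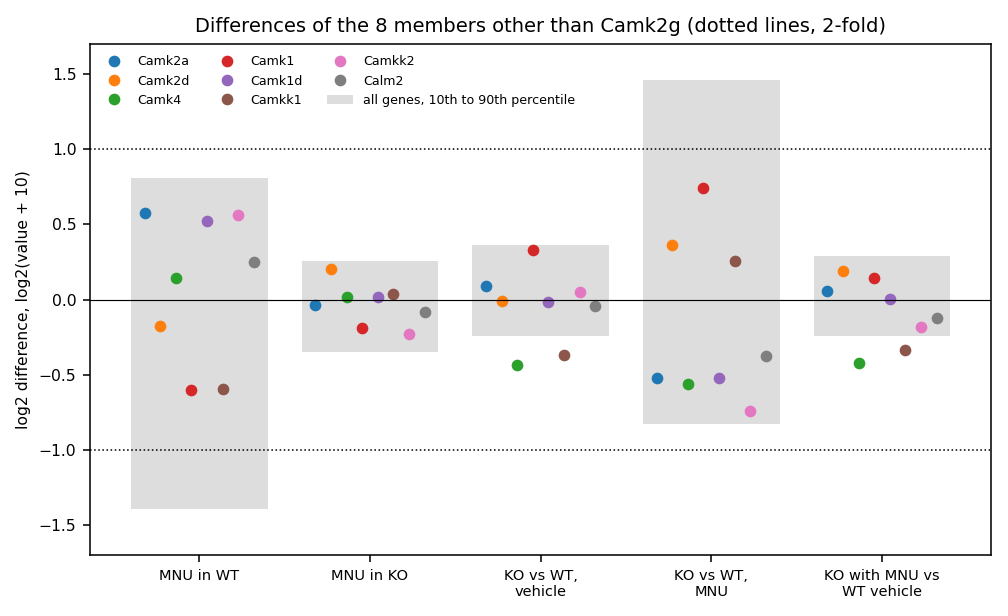
Log2 differences on the log2(value + 10) scale (vertical axis) of the 8 members other than Camk2g in 5 comparisons (horizontal axis; WT, wild type; KO, knockout). Grey bands span the 10th to 90th percentile of all genes and dotted lines mark 2-fold. No point passes 2-fold, and Camk4 lies lowest, at -0.44 and -0.42, in both comparisons with vehicle wild type as the reference for a knockout library.

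Divided by exon length, the levels in vehicle wild type ran from Calm2 (9283 per kb) and Camk4 (6869) through Camkk1 (872), Camk2g (720) and Camk1d (559). Below these lay Camk1 (318), Camkk2 (283), Camk2d (211) and Camk2a (204). With 1 library no neighbours in this order can be said to differ. The order also rests on the length used: Camk2d has 8524 bases of exon but a longest transcript of 5524. In MNU knockout Camk2g was last, at 7.77 per kb, and Calm2 (8520) and Camk4 (5124) were still the first of the order.

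The other genes of the calcium and calmodulin pathway, taken from 6 lists, were past 2-fold about as often as all genes in the comparisons that include MNU wild type. Of the 63 measured pathway genes, MNU wild type was past 2-fold above vehicle for 4 (6.35%) and below it for 8 (12.7%), beside 7.14% and 14.2% of all genes. MNU knockout was past 2-fold from vehicle knockout for 0 and 0, beside 0.331% and 2.95%. In knockout against wild type 0 were higher and 1 lower (1.59%) with vehicle, beside 2.59% and 0.359%. With MNU 10 were higher (15.9%) and 4 lower (6.35%), beside 15.0% and 7.37%. The shares with MNU in wild type, and between genotypes with MNU, are near those of all genes and are no result about the pathway. MNU wild type is also the library in which 9 of the 10 thymic epithelial markers were at least 2-fold below vehicle wild type, and the part of cell make-up in the pathway values was not tested.

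Among other CaM kinase and calmodulin genes, 1 of 7 was past 2-fold with MNU in wild type, and the median log2 difference was -0.04. Pnck, a CaMKI beta isoform, stood at 137, 317, 173 and 165. Dapk1, a calmodulin-regulated death-associated kinase, stood at 3473, 5938, 4006 and 3183. Both were highest in MNU wild type.

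Among CaM kinase phosphatases and calmodulin buffers, 1 of 7 was higher and 1 lower, with a median of 0.11. Nrgn encodes neurogranin, which holds calmodulin when calcium is low, and stood at 320, 17.5, 362 and 353. Ppm1e, a phosphatase that removes the activating phosphate from CaM kinases, stood at 873, 1795, 805 and 726. Strn3, a calmodulin-binding striatin, stood at 3592, 2848, 3070 and 3109. Nrgn was thus 18.3-fold lower and Ppm1e 2.06-fold higher with MNU in wild type, while the remaining libraries of each were close.

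Calcineurin is the phosphatase that calmodulin activates alongside the kinases. Of 11 genes of calcineurin and NFAT, 0 were higher and 2 lower with MNU in wild type, at a median of -0.16. Ppp3ca, the alpha catalytic subunit, stood at 1167, 382, 1290 and 1104. Nfat5, the tonicity-responsive relative of the calcineurin-driven NFAT factors, stood at 7849, 3218, 7250 and 7842. Rcan3, a calcineurin regulator, stood at 1177, 730, 1183 and 1481. MNU wild type was the lowest library for each of these.

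Calcium entry, release and pump genes had a median of -0.33 with MNU in wild type, with 0 of 15 higher and 3 lower. Plcg2, a phospholipase of B and myeloid cells, stood at 858, 188, 959 and 1491. Beside it, the 5 measured of 6 B cell markers summed to 2628, 1913, 4056 and 6662 with none at 0, likewise lowest in MNU wild type and highest in MNU knockout. Of these markers 3 were at least 2-fold lower and 1 higher with MNU in wild type, and their part in the Plcg2 values was not tested. Atp2b4, a plasma membrane calcium pump, stood at 1202, 363, 1419 and 1139. Itpr1, a calcium release channel of the endoplasmic reticulum, stood at 5849, 2459, 4471 and 5405.

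The list of CREB and its partners, MEF2 factors and class IIa histone deacetylases also held Srf, Ywhab, Ywhae and Nr4a1. Of its 16 measured genes, 2 were higher and 2 lower with MNU in wild type, at a median of -0.10. Mef2b stood at 83.3, 489, 131 and 174 and Crtc3, a CREB coactivator, at 1948, 5364, 2368 and 1697. Hdac5, a deacetylase that CaM kinases send out of the nucleus, stood at 1992, 500.0, 1672 and 2051. Nr4a1, outside the naming rule and named because it was the only pathway gene past 2-fold between the vehicle libraries, stood at 4126, 1333, 1758 and 2809. It was chosen after its values were seen.

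None of the 7 genes of AMPK, which Camkk2 also phosphorylates, and of the AMPK kinase LKB1 was past 2-fold in any comparison. Their median with MNU in wild type was 0.03. Cab39, an LKB1 scaffold, stood at 9510, 11904, 9953 and 9353, Prkag1, an AMPK gamma subunit, at 2855, 3567, 2882 and 2842, and Stk11, the LKB1 gene, at 4709, 3757, 4548 and 4592.

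**Figure D4:**
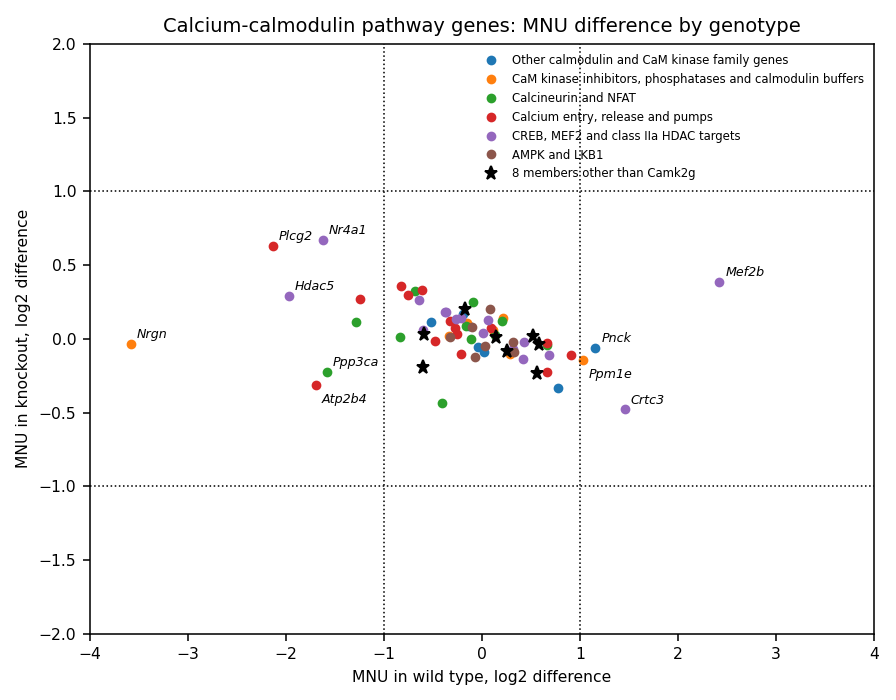
Log2 difference with MNU in wild type (horizontal axis) and in knockout (vertical axis), on the log2(value + 10) scale, of the pathway genes coloured by list and of the 8 members other than Camk2g (stars). Dotted lines mark 2-fold. The points spread along the horizontal axis, from Nrgn at -3.58 to Mef2b at 2.42, and none is past 2-fold on the vertical axis.

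The genes beside Camk2g on its chromosome were examined after the members' values were seen. Their order was read from RefSeq (GRCm38.p6) and only measured genes were counted, 5 on each side. In knockout against wild type with vehicle, 0 of 10 were past 2-fold, with log2 differences from -0.20 (Fut11) to 0.65 (Ndst2). Ndst2, a heparan sulphate modifying enzyme and the nearest measured gene on one side, stood at 1060, 2027, 1671 and 1583. Vehicle wild type was its lowest library, and both knockout libraries were 1.58 and 1.49 times that level. Plau, the nearest on the other side and the gene of urokinase, stood at 835, 216, 903 and 783, lowest in MNU wild type. In knockout against wild type with MNU, 2 of 10 were past 2-fold, with log2 differences from -0.35 to 1.81, beside 15.0% of all genes higher and 7.37% lower. No measured neighbour was thus 2-fold lower in knockout than in wild type, with vehicle or with MNU. For 10 genes, these counts are near the shares of all genes and are no result about the locus. Ppp3cb, Sec24c and Fut11 did have both knockout libraries below both wild-type libraries, an order found for 14.7% of all genes.

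**Figure D5:**
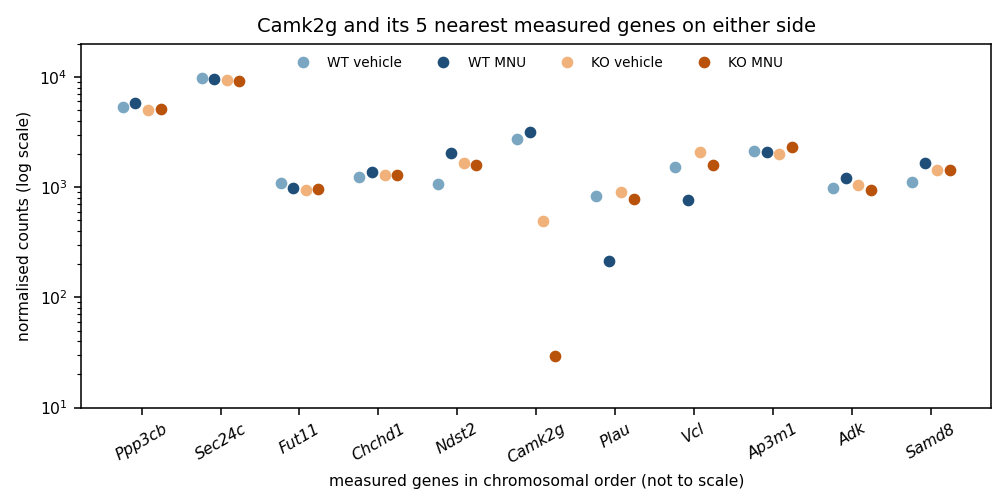
Normalised counts (vertical axis, log scale) of Camk2g and the 5 measured genes on either side of it, in chromosomal order and not to scale, 1 point per library. Camk2g lies at 489 and 29.7 in knockout, while in knockout no neighbour is past 2-fold from vehicle wild type. Of all genes, 2.59% were higher and 0.359% lower in vehicle knockout, and 1.57% and 1.11% in MNU knockout.

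The genes with the pattern most like Camk2g lay far from it. Likeness was the Euclidean distance between the 3 log2 differences of the other libraries from vehicle wild type. Genes below 100 in their highest library and genes with provisional symbols (Gm, Rik, LOC or a leading digit) were left out of the search. The nearest gene was Thbs1, which encodes the matrix glycoprotein thrombospondin-1, at a distance of 2.74 and levels of 2788, 2677, 1138 and 210. Neu3, a plasma membrane sialidase, followed at 3.50, with 1864, 3027, 772 and 246. Trim12a, Cyr61 and Col5a3 lay at 4.35, 4.50 and 4.52. The nearest genes of the other members lay at between 0.011 (Tor2a to Camk1d) and 0.084 (Med18 to Camk4). Few genes have differences as large as those of Camk2g, so its larger distances restate their size and are no separate result.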

How the data were processed

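The deposited values are a signal per gene and library, named normalised counts by the authors per the file headers, and how they were normalised is not stated in the labels or headers. TopHat2 2.0.8b, edgeR and mm9 are named per the submitters' processing notes, without role or order. The values were not whole, so counting intervals were not computed and depth is known only as the sums.

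Groups came from the titles. With Python 3.11.15 and pandas 2.3.3, log2(value + 10) was taken and a mean below 10 led to the removal of 11 genes. Genes at least 2-fold apart on this scale were counted, and printed ratios are of the values themselves. The members, lists and naming rule (all members, up to 3 genes per pathway list with the largest difference and at least 100 in the highest library, calmodulin genes, the 5 genes most like Camk2g) were chosen with earlier results of these data known. Of the lists, 20 pathway genes and the neuron markers were not analysed here, and some results are not reported here. Gene lengths and sequences came from GENCODE M21. Alternatives were other pseudocounts, filters, scalings and thresholds, a subtracted share and removal of 57 abundant, haemoglobin and immunoglobulin genes.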

Additional observations from a re-analysis of the deposited data

Results flagged for a closer look

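As deposited, the MNU change of Camk2g ran in opposite directions in the genotypes. It was higher with MNU in wild type (log2 difference 0.21) and lower with MNU in knockout (-3.65), so that the knockout change minus the wild-type change was -3.86. The difference was not tested, since each group had 1 library. The knockout change rests on the 489 normalised counts of vehicle knockout, the library with the 15.4% share of the MNU wild-type profile. With that share subtracted, the direction turned: the knockout change was 1.83 and the difference of changes 1.62. Both sizes lie near the floor of the scale, because the subtracted vehicle knockout value was smaller than the constant added before log2. The turn also needs a share above the 14.6% of Camk2g, which lies within the range of the 42 genes (13.2% to 21.4%). The direction of the knockout change is therefore undecided.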

How the results depend on the processing

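The number of members past 2-fold did not move with the pseudocount (2.5 or 40), filter, scaling, removal of abundant genes or the subtracted share. With a 1.5-fold threshold 2 members were apart with MNU in wild type (Camk1 and Camkk1), 3 in knockout against wild type with MNU (Camk2g, Camk1 and Camkk2), and 4 for the difference of MNU changes (Camk2g, Camk2a, Camkk1 and Camkk2). At 4-fold the number also stayed. With the share subtracted, the log2 difference of Camk2g with MNU in knockout was 1.83 in place of -3.65. Its difference of MNU changes was 1.62 in place of -3.86, because the subtraction takes vehicle knockout below the 29.7 of MNU knockout. A share below the 14.6% of Camk2g would not do so, and both subtracted sizes lie near the floor of the scale. Over the alternatives other than thresholds, Camk4 in knockout against wild type ranged from -0.57 to -0.42 with vehicle and from -0.57 to -0.49 with MNU. No pathway list median moved by more than 0.105. Chosen after the data were seen, the longest transcript as length gave Camk2g 57.1%, 57.4%, 18.8% and 1.29% of the CaMKII pool in the 4 libraries, and levels not divided by length gave 48.2%, 48.9%, 13.9% and 0.902%. Precision is limited by 1 library a group.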

Other observations

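Marker sums of cell types not described above are given in the order vehicle wild type, MNU wild type, vehicle knockout and MNU knockout. The 4 measured of 5 NK cell markers summed to 1057, 517, 2766 and 2386 normalised counts. With MNU in wild type 1 of the 4 was at least 2-fold higher (Prf1) and 3 were lower. Prf1 stood at 129, 484, 234 and 219 and made up most of the MNU wild-type sum. Neutrophil markers, 4 of 6 measured, summed to 530, 1849, 425 and 1702, higher in both MNU libraries. Erythroid markers, 3 of 6 measured, summed to 50420, 31323, 17113 and 36073, lowest in vehicle knockout. Fibroblast and endothelial markers, 5 of 7 measured, summed to 11612, 33190, 13954 and 9699, highest in MNU wild type. With MNU in wild type 3 of the 5 were at least 2-fold higher (Col1a1, Col1a2 and Pdgfrb) and 0 lower. The endothelial markers Pecam1 (4919, 6192, 4823 and 4576) and Cdh5 (1181, 887, 904 and 723) were not among the 3. The 6 adipocyte markers summed to 40105, 9449, 44700 and 14891, lower in both MNU libraries, with 1 of them listed at 0 in MNU wild type. None of the 5 neuron markers was analysed here.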
